A study of Mus musculus with 13 samples.

Results

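The troponin and tropomyosin genes measured here are 10 named rows of a table of 23366 genes: Tnnt1, Tnnt2 and Tnnt3 for troponin T, Tnni1 and Tnni2 for troponin I, Tnnc1 and Tnnc2 for troponin C, and Tpm1, Tpm2 and Tpm3 for tropomyosin. They were chosen by symbol as the slow, fast and cardiac forms of the troponin subunits and the tropomyosins, not by their values. All 10 were among the 16537 genes kept by the filter on low counts.

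RNA was sequenced from mouse skeletal muscle cells of a mixed strain in 4 groups. Primary myoblasts, the dividing precursors of muscle fibres, had been isolated from hind limbs of pups on postnatal days 2 to 3. They were wild type (n = 4 libraries) or dICR/dICR (n = 2). Myotubes, the fused cells that myoblasts form, had been kept for 24 hours in medium with 1% horse serum, and were wild type (n = 5) or dICR/dICR (n = 2). The dICR allele deletes the imprinting control region between Igf2 and H19. It is present on both chromosomes in every dICR/dICR cell and in no wild-type cell. The labels do not say which libraries came from separate animals or cultures, so the p-values measure the spread between these libraries, which may in part be technical.

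In striated muscle, tropomyosin lies along the actin filament and covers the sites that myosin binds. Troponin C binds calcium, troponin I holds the filament in the off state, and troponin T ties both to tropomyosin. Fast fibres, slow fibres and the heart use different genes for each subunit, and developing skeletal muscle also expresses slow and cardiac forms, among them the cardiac troponin T gene Tnnt2. Tropomyosin genes also give non-muscle isoforms, which stiffen actin in most cell types, and Tpm3 and Tpm4 are known for these.

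The libraries held 5.31 to 56.44 M counts (M for mega) and fell into a deep set of 7 libraries, each with at least 35.56 M, and a shallow set of 6, each with at most 10.91 M. Wild-type myoblasts 1 and 2, wild-type myotubes 1 to 3 and both dICR/dICR myotubes were deep. Wild-type myoblasts 3 and 4, wild-type myotubes 4 and 5 and both dICR/dICR myoblasts were shallow. The division comes from the total counts, not from the labels, so the sets are no groups of the study design. They differed in more than depth: genes of small nucleolar RNAs took 0.0118% to 0.133% of the counts in deep libraries and 2.79% to 7.13% in shallow ones. The 4 shallow wild-type libraries had 0.153 to 0.462 CPM (counts per M counts of the library, scaled by TMM factors) of the Y-linked gene Ddx3y, whereas the other 9 libraries had 14.5 to 176 CPM. H19, the gene next to the deleted region, had 2345 to 40495 CPM in wild-type libraries and 52.4 to 71.5 CPM in dICR/dICR libraries, as the labels give the genotypes. Each comparison below is therefore given over all libraries and, where 1 depth set holds both groups, within that set; no set holds both dICR/dICR groups.

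The sources used here give sequence upstream of 8 of the 10 genes, in RefSeq, build GRCm38.p6. Since most of the genes moved together, 5 of these promoters are shown, each as the last 100 bases before the annotated start, 5′ to 3′ on the gene's strand. Capitals mark the E-box letters CANNTG, which factors of the MyoD family bind, and the MCAT letters CATTCC or, on the other strand, GGAATG, which TEAD factors bind. The 3 genes with the MCAT letters come first. Tnni1 is shown for its pair of E-boxes, and Tnnc2 because its levels stood apart from those of the other troponins. The windows are chr1:135836234-135836333 on the plus strand for Tnnt2, chr14:31208212-31208311 (plus) for Tnnc1 and chr9:67049214-67049313 (minus) for Tpm1. They are chr1:135799321-135799420 (plus) for Tnni1 and chr2:164779735-164779834 (minus) for Tnnc2.
Tnnt2: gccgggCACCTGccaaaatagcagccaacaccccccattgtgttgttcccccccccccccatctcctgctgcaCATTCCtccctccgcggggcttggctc
Tnnc1: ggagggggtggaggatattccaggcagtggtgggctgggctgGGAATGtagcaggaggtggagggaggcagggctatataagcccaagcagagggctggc
Tpm1: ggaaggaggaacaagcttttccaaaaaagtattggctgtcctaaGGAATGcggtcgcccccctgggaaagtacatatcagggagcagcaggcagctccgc
Tnni1: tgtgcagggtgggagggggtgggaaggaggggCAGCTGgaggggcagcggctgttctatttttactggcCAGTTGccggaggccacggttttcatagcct
Tnnc2: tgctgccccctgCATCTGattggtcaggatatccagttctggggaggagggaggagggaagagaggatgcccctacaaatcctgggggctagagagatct

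Searched on both strands in the 250 bases before each of 32851 annotated starts, CATTCC was found at 12.6% of all starts and at 3 of the 11 starts of these genes. Its first base lay 27 bases before the start of Tnnt2, 58 before that of Tnnc1 and 56 before that of Tpm1. The letters CANNTG, of which CAGCTG is one form, were found at 66.2% of all starts and at all 11 here. CAGCTG itself was found at 13.0% of all starts and at 5 of the 11, which belong to Tnni1, Tnnt2, Tpm2 and Tpm3. The windows of the 2 Tnni1 starts overlap. Their CAGCTG, 68 bases before 1 start and 158 before the other, is the same site counted at both. The MEF2 and CArG motifs were found at 2.92% and 1.47% of all starts, and their letters are not in these 11 windows. A match of letters is a description of the window and not a measured binding site.

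Tnnt1, the slow skeletal troponin T, had 100.2, 94.6, 648 and 620.4 CPM in wild-type myoblasts 1 to 4 and 866, 444, 623, 1012 and 1119 CPM in wild-type myotubes 1 to 5. It had 224 and 114 CPM in the dICR/dICR myoblasts and 337 and 775 CPM in the dICR/dICR myotubes. The shallow wild-type myoblasts were as high as a part of the myotubes, so the wild-type groups overlapped, and the dICR/dICR myoblasts lay between the deep and the shallow wild-type myoblasts. Tnnt2, the cardiac and embryonic troponin T, had 164, 145, 413 and 419.9 CPM in the wild-type myoblasts and 854, 1452, 1511, 1270.5 and 2538 CPM in wild-type myotubes. In dICR/dICR cells it had 164 and 90.6 CPM in myoblasts and 258 and 825 CPM in myotubes. Every wild-type myotube was above every wild-type myoblast, and both dICR/dICR myotubes were below every wild-type myotube. Tnnt3, the fast skeletal troponin T, had 179, 179, 858 and 841 CPM in the wild-type myoblasts and 1191, 1107, 1380, 1509 and 2257 CPM in wild-type myotubes. It had 171 and 115 CPM in the dICR/dICR myoblasts and 507 and 745 CPM in the dICR/dICR myotubes. Tnnt3 was the only one of the 10 genes for which the dICR/dICR libraries were below all wild-type libraries in myoblasts and also in myotubes. The margin to the deep wild-type myoblasts was small. Of all genes, 14.3% were below in this way in myoblasts and 8.76% in myotubes, and the share below in both was not computed.

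Tnni1, the slow skeletal troponin I, had 204, 199, 752 and 799.8 CPM in the wild-type myoblasts and 1827, 1119, 1674, 2363 and 2707 CPM in wild-type myotubes. It had 409 and 181 CPM in dICR/dICR myoblasts and 508 and 1250.4 CPM in dICR/dICR myotubes. The wild-type groups did not overlap, whereas dICR/dICR myotube 2 lay within the wild-type myotubes. Tnni2, the fast skeletal troponin I, was, per exon length, the least expressed of these troponin genes, and had 14.9, 14.5, 83.1 and 89.8 CPM in the wild-type myoblasts and 81.0, 48.7, 72.4, 242 and 317 CPM in wild-type myotubes. It had 15.1 and 12.1 CPM in dICR/dICR myoblasts and 55.3 and 53.6 CPM in dICR/dICR myotubes. The shallow wild-type myoblasts were above the deep wild-type myotubes, and the dICR/dICR libraries were close to the deep wild-type libraries of the same cell type. Tnni3, the cardiac troponin I and no member of the set, had at most 1.02 CPM in every library.

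Tnnc1, the slow and cardiac troponin C, had 197, 178, 816 and 773 CPM in the wild-type myoblasts and 1761, 1017, 1379, 2096 and 2180 CPM in wild-type myotubes. It had 289 and 149 CPM in dICR/dICR myoblasts and 475 and 1249 CPM in dICR/dICR myotubes. The wild-type groups did not overlap. Tnnc2, the fast skeletal troponin C, had 31.7, 34.1, 318 and 273 CPM in the wild-type myoblasts and 78.6, 79.5, 163, 781 and 1323 CPM in wild-type myotubes. It had 74.1 and 48.7 CPM in dICR/dICR myoblasts and 147 and 255 CPM in dICR/dICR myotubes. The shallow libraries were far above the deep ones in both wild-type groups, and the dICR/dICR myotubes lay well below the shallow wild-type myotubes, with 1 of them above all 3 deep ones.

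Tpm1, the alpha tropomyosin of fast muscle and heart, had 596, 609, 2429 and 2337 CPM in the wild-type myoblasts and 2295, 1616, 1668, 3150.2 and 3281 CPM in wild-type myotubes. It had 925 and 559 CPM in dICR/dICR myoblasts and 1246 and 1860 CPM in dICR/dICR myotubes. The shallow wild-type myoblasts were above all 3 deep wild-type myotubes. Tpm2, the beta tropomyosin, had 599, 590.0, 1474 and 1515 CPM in the wild-type myoblasts and 3173, 2464, 2900.4, 3310.4 and 4258 CPM in wild-type myotubes. It had 640.4 and 330.2 CPM in dICR/dICR myoblasts and 942 and 1984 CPM in dICR/dICR myotubes. The wild-type groups did not overlap, and both dICR/dICR myotubes were below every wild-type myotube. Tpm3, which encodes the slow muscle alpha tropomyosin and non-muscle isoforms, had 525.9, 505, 60.4 and 65.1 CPM in the wild-type myoblasts and 266, 301, 179, 52.0 and 157 CPM in wild-type myotubes. It had 84.1 and 81.3 CPM in dICR/dICR myoblasts and 413 and 377 CPM in dICR/dICR myotubes. Tpm3 ran the other way from the other 9 genes with respect to the depth sets: every deep library was above every shallow one. Its counts are uncertain, since RefSeq lists 3 related pseudogenes, Tpm3-rs2, Tpm3-rs3 and Tpm3-rs7, none of which is a row of the table, and reads of near-identical copies can be lost or shared.

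**Figure D1:**
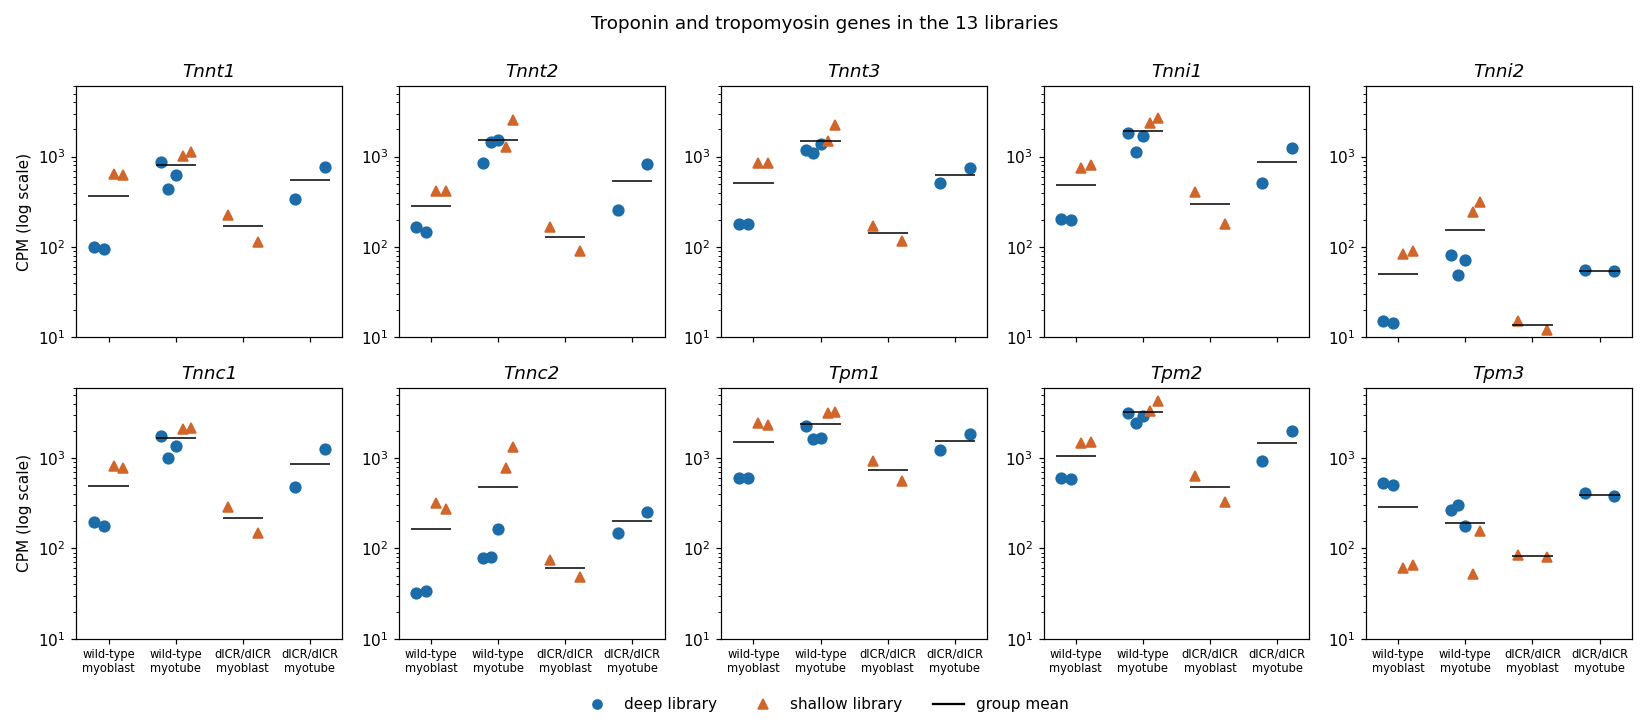
Level of each of the 10 genes, in CPM on a log scale, in the 13 libraries by group. Circles are deep libraries, triangles shallow ones and lines group means; in wild-type myoblasts the triangles lie above the circles for 9 genes and below them for Tpm3.

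The gap between depth sets was itself a large part of the spread. In wild-type myoblasts the mean of the shallow libraries was 2.51 times that of the deep ones for Tpm2, 2.70 times for Tnnt2, and 3.85 to 5.88 times for Tnni1, Tpm1, Tnnc1, Tnnt3 and Tnni2. It was 6.51 times for Tnnt1 and 8.98 times for Tnnc2, whereas for Tpm3 the deep libraries were 8.21 times the shallow ones. In wild-type myotubes the gap was 1.33 to 1.73 times for Tnnt1, Tnnt2, Tnnt3, Tnni1, Tnnc1, Tpm1 and Tpm2, but 4.15 times for Tnni2 and 9.84 times for Tnnc2. Tpm3 was 2.38 times higher in the deep myotubes. Markers of differentiation moved with the set in myoblasts: Myog, a transcription factor that starts muscle differentiation, had 146 and 142 CPM in the deep and 1179 and 1196 CPM in the shallow wild-type myoblasts. Ckm, the muscle creatine kinase, had 2.08 and 2.65 CPM in the deep ones and 65.4 and 72.9 CPM in the shallow ones. The part of these markers in the gap between sets was not tested.

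The first comparison asked how the genes change as wild-type myoblasts become myotubes. Over all 9 wild-type libraries, 4 of the 10 genes rose: Tnnt2, Tnni1, Tnnc1 and Tpm2. These are the cardiac troponin T, the slow troponin I, the slow troponin C and the beta tropomyosin. The fast genes Tnnt3, Tnni2 and Tnnc2 had fitted changes of similar size, between 1.53 and 1.59 on the log2 scale, and did not pass. In bulk RNA, more differentiated cells and more RNA per cell cannot be told apart. The test was edgeR's quasi-likelihood test with Benjamini-Hochberg adjustment over all genes, and genes with an adjusted p under 0.05 were called. Of all genes tested, 8.86% were called as higher and 10.2% as lower.

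Tnnt2 rose by 2.42 ± 0.49 (log2 fold change ± SE) in edgeR, with an adjusted p of 0.00666. Tnni1 rose by 1.99 ± 0.53 (adjusted p = 0.0216), Tnnc1 by 1.78 ± 0.53 (adjusted p = 0.0355) and Tpm2 by 1.62 ± 0.39 (adjusted p = 0.0146). Tnnt3 missed the threshold narrowly, at 1.53 ± 0.50 (adjusted p = 0.0506). DESeq2 called these 4 genes and also Tnnt3, at 1.56 ± 0.51 (adjusted p = 0.0116), where it called 9.77% of all genes as higher. Tnnt2, Tnnt3, Tnni1, Tnnc1 and Tpm2 were also the genes of the set whose wild-type groups did not overlap, where 9.07% of all genes had myotubes above myoblasts throughout. Tnnt1 had 1.15 ± 0.60 (adjusted p = 0.206), Tnni2 1.59 ± 0.69 (0.127), Tnnc2 1.56 ± 0.96 (0.286) and Tpm1 0.69 ± 0.47 (0.337). Tpm3 had -0.60 ± 0.65 (adjusted p = 0.575). The median of the 10 log2 changes was 1.58 and that of all genes 0.02. Without wild-type myoblast 1, or without wild-type myoblast 2, both of the deep set, 2 genes were called, Tnnt2 and Tpm2. Tnnc1 also missed the threshold without wild-type myotube 1, 3, 4 or 5, each left out in turn, with adjusted p-values of 0.0565 to 0.0664 in edgeR.

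Within a depth set the same comparison called more of the genes. Within the deep set 9 genes rose and Tpm3 fell, where 11.6% of all genes rose and 10.6% fell. The rises ran from 1.66 ± 0.31 for Tpm1 (adjusted p = 0.0120) and 1.73 ± 0.41 for Tnnc2 (adjusted p = 0.0248) to 2.96 ± 0.46 for Tnni1 (adjusted p = 0.00622) and 3.07 ± 0.55 for Tnnt2 (adjusted p = 0.00998). Tpm3 fell by 1.02 ± 0.26 (adjusted p = 0.0291). The 2 deep wild-type myoblasts had close levels, such as 179.1 and 179.4 CPM of Tnnt3, and the labels do not say whether they are separate cultures. Within the shallow set 7 genes rose, where 11.2% of all genes did: Tnnt2 by 2.21 ± 0.39, Tnnc2 by 1.85 ± 0.30, Tnni1 by 1.73 ± 0.36, Tnni2 by 1.71 ± 0.19, Tnnc1 by 1.45 ± 0.31, Tpm2 by 1.36 ± 0.33 and Tnnt3 by 1.17 ± 0.28, with adjusted p-values of 0.00120 to 0.0248. There Tnnt1 had 0.77 ± 0.30 (adjusted p = 0.0997), Tpm1 0.45 ± 0.28 (0.277) and Tpm3 0.75 ± 0.42 (0.239). Tnnt2, Tnni1, Tnnc1 and Tpm2 thus rose over all libraries and within each set, and the sign of Tpm3 differed between the sets. With the depth set as a term 9 genes rose, where 15.3% of all genes did. With only the 2 wild-type groups of a set in the fit, 8 genes rose in the shallow set (15.5% of all genes), and in the deep set 9 rose (10.5%) and 1 fell (9.36%). Whether any gene's change differed between the sets was not tested.

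Other genes of the thin filament moved with them. Of 18 listed actins, nebulins, tropomodulins, leiomodins and thin filament chaperones, 10 rose and 3 fell in wild-type differentiation over all libraries, with a median log2 change of 2.22, where 8.86% of all genes rose and 10.2% fell. Acta2, an actin of smooth and immature striated muscle, rose by 3.77 ± 0.60, and Actc1, the cardiac actin of developing muscle, by 3.59 ± 0.61. Xirp1, which binds and protects actin filaments, rose by 2.35 ± 0.44, and Lmod3, which nucleates actin filaments, by 2.37 ± 0.46, with adjusted p-values of 0.00205 to 0.00512 for these 4. The genes that fell were Tmod2, Tmod3 and Nebl, of which Tmod2 and Tmod3 cap actin filaments in neurons and other non-muscle cells. Of 17 listed transcription factors known to act on muscle promoters, 8 rose and 2 fell, against the same shares of all genes. Tead4, a factor that binds the MCAT letters, rose by 2.36 ± 0.25 (adjusted p = 0.00033), and Myog by 2.63 ± 0.69 (adjusted p = 0.0205).

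The second comparison asked what the dICR/dICR genotype changes in myoblasts. Over all libraries none of the 10 genes passed, and all 10 log2 changes were negative, with a median of -1.16 against -0.06 for all genes. In this comparison edgeR called 0.0302% of all genes. Tnnt3 was the only one of the 10 with an unadjusted p under 0.05 in edgeR, at -1.84 ± 0.68 (adjusted p = 0.327). Of all 16537 genes, 2009 had such an unadjusted p. DESeq2 called none of the 10, against 1.95% of all genes. Tnnt3 was also the only gene of the set whose dICR/dICR libraries were below all wild-type myoblasts, as 14.3% of all genes were.

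Both dICR/dICR myoblast libraries are shallow, and against the 2 shallow wild-type myoblasts 9 of the 10 genes fell, where 10.3% of all genes did. Those 2 wild-type libraries, with 6.95 and 5.55 M counts, had a chi-square of 4.67 per degree of freedom between them. The deep wild-type myoblasts 1 and 2, with 54.54 and 51.67 M counts, had 39.8. This value grows with depth, so shallow and deep pairs cannot be ranked by it. The labels do not say whether the libraries of either pair are separate cultures. The largest falls were those of the fast troponins, Tnni2 by 2.64 ± 0.21 (adjusted p = 0.00116), Tnnt3 by 2.55 ± 0.29 (adjusted p = 0.00314) and Tnnc2 by 2.25 ± 0.31 (adjusted p = 0.00498). Tnnt1 fell by 1.89 ± 0.30, Tnnc1 by 1.84 ± 0.31, Tnnt2 by 1.69 ± 0.38, Tpm1 by 1.67 ± 0.29, Tpm2 by 1.61 ± 0.34 and Tnni1 by 1.38 ± 0.36, with adjusted p-values of 0.00687 to 0.0314. Tpm3 had 0.42 ± 0.42 (adjusted p = 0.512). In a fit of all libraries with the depth set as a term, wild-type libraries set 1 shift between sets for both cell types. There 3 genes fell, the fast troponins Tnni2 by 2.53 ± 0.27, Tnnc2 by 2.30 ± 0.40 and Tnnt3 by 2.19 ± 0.44. That fit called 1.28% of all genes as lower. Its single shift does not match genes such as Tnnt1, whose gap was 6.51 times in wild-type myoblasts and 1.65 times in wild-type myotubes. With only the 2 groups of the shallow set in the fit, the count stayed at 9, where 11.4% of all genes were lower.

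The fall within the shallow set went together with markers of differentiation. All 6 listed myotube markers fell there, and Myog had 402 and 151 CPM in the dICR/dICR myoblasts against 1179 and 1196 CPM in the shallow and 146 and 142 CPM in the deep wild-type myoblasts. Summed over those 6 markers, the level was 1218 to 2346 CPM in dICR/dICR myoblasts and 1770 to 8793 CPM in wild-type myoblasts. Among the listed myoblast markers, Myod1, Myf5 and Pax7 were also lower in dICR/dICR than in all wild-type myoblasts, as 14.3% of all genes were. Myod1 had 185 to 255 against 298.5 to 462 CPM. Myf5 had 34.0 to 64.5 against 87.3 to 142 CPM, and Pax7 39.0 to 56.2 against 57.3 to 115 CPM. Des, Cdh15 and Itga7 lay within the wild-type range. Within the shallow set, 9 of the 18 other thin filament genes fell and 1 rose, where 10.3% of all genes fell and 11.3% rose. Nrap, which binds actin during myofibril assembly, fell by 3.14 ± 0.33, Acta1, the skeletal actin, by 2.51 ± 0.30, Xirp2 by 2.44 ± 0.35 and Klhl41 by 1.90 ± 0.30. Tpm4, a non-muscle tropomyosin outside the set, rose by 1.10 ± 0.18 (adjusted p = 0.00710). It had 529 and 572 CPM in the dICR/dICR myoblasts. These levels were above the 245 and 276 CPM of the shallow wild-type myoblasts but below the 785 and 802 CPM of the deep ones. Against the deep wild-type myoblasts the same 9 genes were not lower throughout: Tnnt3 alone was lower in both dICR/dICR myoblasts than in both of those libraries. The difference therefore depends on which wild-type libraries serve as the control. The part of differentiation state, or of the Ddx3y difference that separates the shallow wild-type from the dICR/dICR libraries, was not tested.

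**Figure D2:**
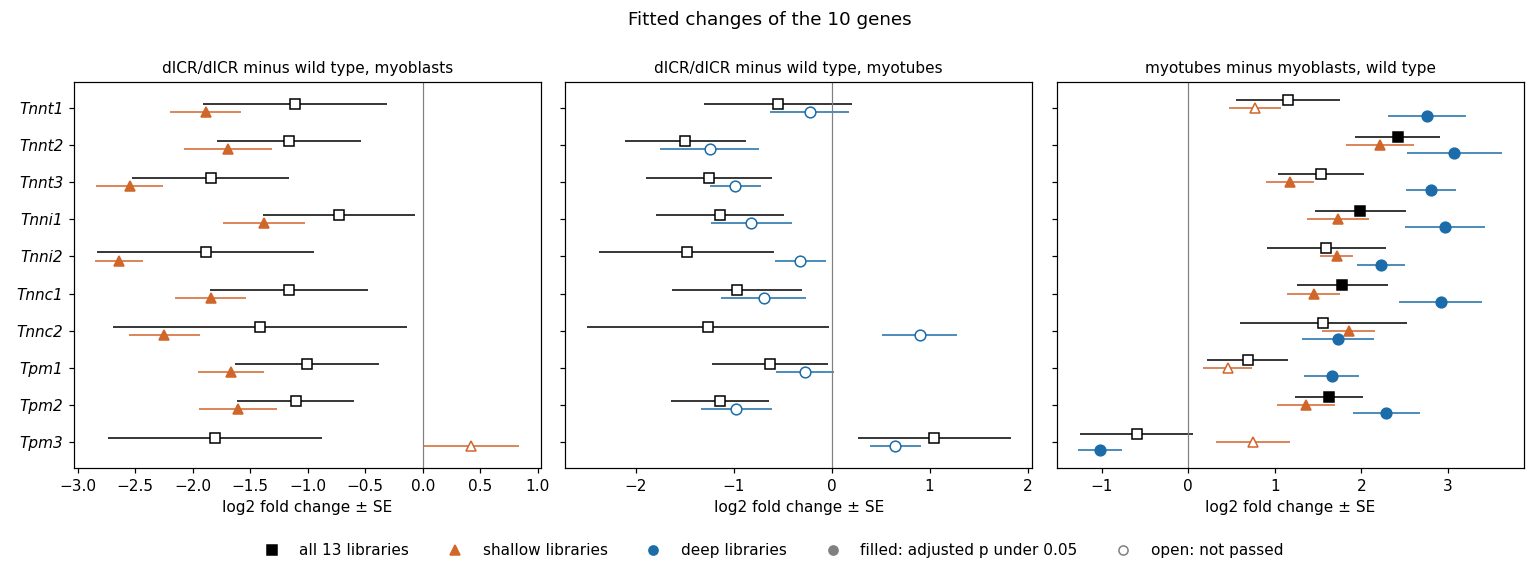
Log2 fold change with its SE for each gene in 3 comparisons, over all 13 libraries (squares), within the shallow set (triangles) and within the deep set (circles); filled symbols passed the adjusted p of 0.05. In myoblasts 9 genes fell within the shallow set and none passed over all libraries, and no gene passed in myotubes.

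The third comparison asked the same of myotubes. None of the 10 genes passed over all libraries in edgeR, where 0.556% of all genes were called, and none in DESeq2, which called 4.91% of all genes. Of the log2 changes 9 were negative, with a median of -1.14 against -0.06 for all genes. Tnnt2 at -1.49 ± 0.62 (adjusted p = 0.259) and Tpm2 at -1.14 ± 0.50 (adjusted p = 0.277) had unadjusted p-values under 0.05 in edgeR. So did 2773 of the 16537 genes tested. Tnnt2, Tnnt3 and Tpm2 were lower in both dICR/dICR myotubes than in all 5 wild-type myotubes, as 8.76% of all genes were, and Tpm3 was higher, as 10.5% were.

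Both dICR/dICR myotube libraries are deep, and against the 3 deep wild-type myotubes none of the 10 genes passed either, where 0.709% of all genes did. In that edgeR fit 5 of the 10 had an unadjusted p under 0.05, as did 2587 of the 14952 genes tested. Tnnt3 had -0.98 ± 0.26 (adjusted p = 0.139), Tnnt2 -1.25 ± 0.50 (0.267) and Tpm2 -0.97 ± 0.37 (0.244). Tpm3 had 0.65 ± 0.26 (adjusted p = 0.259). Tnnc2 changed sign between the fits, from -1.27 ± 1.24 over all libraries (adjusted p = 0.624) to 0.90 ± 0.38 within the deep set (adjusted p = 0.282). The remaining 5 genes, Tnnt1, Tnni1, Tnni2, Tnnc1 and Tpm1, had changes between -0.82 and -0.22 there. The listed myotube markers were also lower in the fit within the deep set, with a median log2 change of -1.09, none of them called. Summed over these markers the dICR/dICR myotubes had 7548 and 13864 CPM and the wild-type myotubes 19177 to 32876 CPM, and the part of that gap in the values of the 10 genes was not tested.

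The fourth comparison set dICR/dICR myotubes against dICR/dICR myoblasts. All 10 genes were higher in both myotubes than in both myoblasts, as 30% of all genes were. None passed in edgeR, where 0.145% of all genes were called, and none in DESeq2, which called 5.33%. In edgeR 5 genes, Tnnt2, Tnnt3, Tnnc1, Tpm2 and Tpm3, had an unadjusted p under 0.05, as did 3172 of the 16537 genes tested. The fitted changes ran from 1.06 ± 0.70 for Tpm1 to 2.26 ± 1.02 for Tpm3, with a median of 1.85. The myoblasts are shallow and the myotubes deep, so that differentiation and the depth set cannot be told apart in these cells. With the depth set as a term, taken from the wild type, 9 genes rose, where 4.8% of all genes did, from 2.41 ± 0.49 for Tpm1 to 4.28 ± 0.34 for Tnni2 and 4.95 ± 0.51 for Tnnc2. Tpm3 then had 0.22 ± 0.65 (adjusted p = 0.873). The term assumes the same shift in both cell types. In the wild type the gap between sets was similar for Tnnc2, 8.98 times in myoblasts and 9.84 times in myotubes. It differed for Tnnt3, 4.74 and 1.54 times, and for Tnnc1, 4.24 and 1.54 times. The shallow wild-type libraries also had far less Ddx3y than the shallow dICR/dICR libraries.

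The difference between the changes in dICR/dICR and in wild type was tested as an interaction. None of the 10 genes passed, and neither did any other gene in edgeR, so the called share was 0%. An unadjusted p under 0.05 was reached by 1643 genes, among them 1 of the 10, Tpm3, at 2.85 ± 1.21 (adjusted p = 0.495). DESeq2 called 57 genes, or 0.257%, and none of the 10. For the other 9 genes the differences ran from -0.41 to 0.59, with SEs of 0.67 to 1.66. With the depth set as a term 16 genes, or 0.0968%, were called, among them Tnni2 at 2.31 ± 0.36 (adjusted p = 0.0310), and Tnnc2 had 3.19 ± 0.54 (adjusted p = 0.0555). These values rest on the same single shift taken from the wild type. For Tnni2 the gap between sets was 5.88 times in wild-type myoblasts and 4.15 times in wild-type myotubes.

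Ratios of counts within a library compare the fast with the slow and cardiac forms without any scaling between libraries. In wild-type differentiation the log2 ratio of fast to slow moved by 0.25 for Tnnt3 to Tnnt1, by -0.51 for Tnni2 to Tnni1 and by -0.71 for Tnnc2 to Tnnc1. The ratio of fast to cardiac troponin T, Tnnt3 to Tnnt2, moved by -0.62, from 0.62 ± 0.47 (SD, n = 4) to 0.01 ± 0.35 (n = 5). None of these passed an exact two-sided permutation test, with p-values of 0.27, 0.19, 0.413 and 0.0794, all 0.405 or more after adjustment over 6 ratios; the smallest p this design allows is 0.0159. The ratio Tpm2 to Tpm3 moved by 1.89 (exact p = 0.222) and Tpm1 to Tpm3 by 1.08 (exact p = 0.429).

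Of the 4 troponin ratios, Tnnc2 to Tnnc1 had the largest SD between libraries in each wild-type group, 0.63 in myoblasts and 1.57 in myotubes. Among myoblasts the tropomyosin ratios spread wider, with an SD of 2.52 for Tpm2 to Tpm3 and 2.90 for Tpm1 to Tpm3. Tnnc2 to Tnnc1 was -2.63, -2.39, -1.36 and -1.50 on the log2 scale in wild-type myoblasts 1 to 4 and -4.49, -3.68, -3.08, -1.42 and -0.72 in wild-type myotubes 1 to 5. Within the deep set it was lower in myotubes by 1.24, and within the shallow set it was higher by 0.36. The troponin I ratio, Tnni2 to Tnni1, was lower by 0.74 in the deep set and by 0.02 in the shallow set. No test within a set can pass, since the smallest exact p is 0.2 in the deep and 0.333 in the shallow set.

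Tnnt3 and Tnni2 lie near H19 on chromosome 7, in the order Tnni2, Lsp1, Prr33, Tnnt3, Mrpl23, Nctc1, H19 in RefSeq, and Tnnc2 lies on chromosome 2. Their ratios to Tnnc2 set the genes near the deletion against a fast troponin gene far from it in the same library. Tnnt3 to Tnnc2 was 2.50, 2.39, 1.43 and 1.62 (log2) in wild-type myoblasts 1 to 4 and 1.21 and 1.24 in dICR/dICR myoblasts. The dICR/dICR myoblasts were below all wild-type ones, by 0.76 on average (exact permutation p = 0.133, the smallest p this design allows; adjusted 0.267). In myotubes Tnnt3 to Tnnc2 was 3.92, 3.80, 3.08, 0.95 and 0.77 in wild-type libraries 1 to 5 and 1.78 and 1.54 in dICR/dICR libraries. The dICR/dICR myotubes lay between the deep and the shallow wild-type ones, and the mean difference over all libraries was -0.84 (exact permutation p = 0.571). Against the deep wild-type myotubes alone it was -1.94 (exact permutation p = 0.2, the smallest possible there). In the edgeR fit within that set Tnnt3 had -0.98 and Tnnc2 0.90, neither passing, so both genes moved the ratio.

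Tnni2 to Tnnc2 was -1.09, -1.24, -1.94 and -1.61 (log2) in wild-type myoblasts 1 to 4 and -2.29 and -2.0 in dICR/dICR myoblasts. These did not overlap either, with a difference of -0.68 (exact permutation p = 0.133, adjusted 0.267). In myotubes the wild-type values were 0.04, -0.71, -1.17, -1.69 and -2.06 and the dICR/dICR values -1.41 and -2.25, which overlapped, with a difference of -0.72 (exact permutation p = 0.381). Within the shallow set the myoblast differences were smaller, -0.30 for Tnnt3 and -0.38 for Tnni2, with a smallest possible p of 0.333. Within the deep set the difference for Tnni2 in myotubes was -1.22. Tnni2 itself had -0.32 and Tnnc2 0.90 in the edgeR fit there, so the larger part came from Tnnc2.

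**Figure D3:**
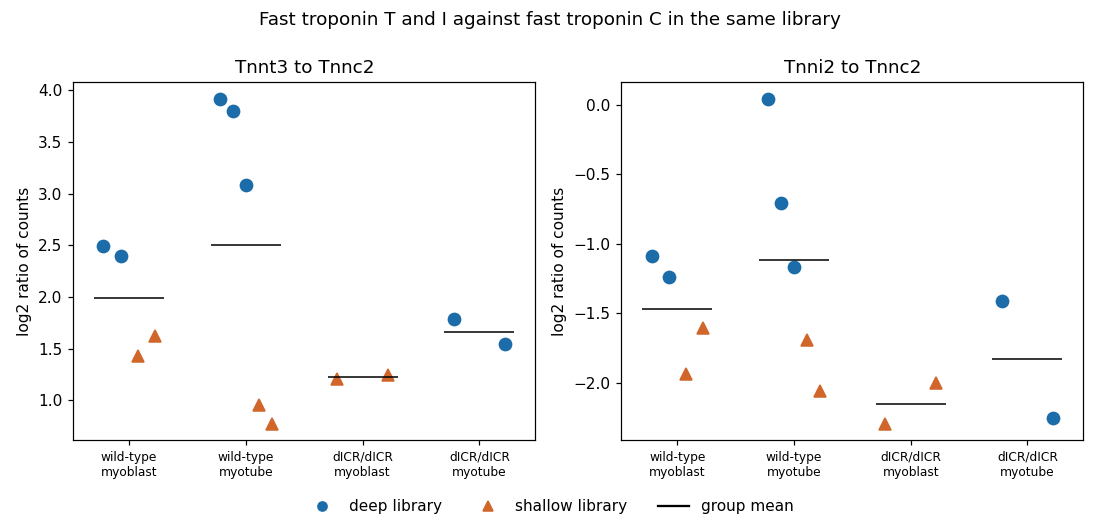
Log2 ratio of the counts of Tnnt3 (left) and Tnni2 (right) to those of Tnnc2 in each library, by group, with lines at group means; circles are deep and triangles shallow libraries. The deep wild-type myotubes hold the 3 highest Tnnt3 ratios, and the shallow wild-type myotubes the 2 lowest.

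Genes next to the pair on chromosome 7 were read for the same comparison. Of the 6 listed, Ctsd, Syt8, Lsp1, Mrpl23, H19 and Igf2, 3 fell in dICR/dICR against wild-type myoblasts within the shallow set: H19 by 8.14 ± 0.52, Lsp1, which lies between Tnni2 and Tnnt3, by 1.24 ± 0.29, and Ctsd by 0.75 ± 0.20. Of all genes, 10.3% fell in that fit. Lsp1 had 24.8, 24.2, 130 and 129 CPM in wild-type myoblasts 1 to 4 and 40.1 and 67.6 CPM in dICR/dICR myoblasts, so it was higher there than in the deep wild-type myoblasts. Mrpl23, between Tnnt3 and H19, followed the depth set throughout, with 33.0 to 47.7 CPM in the deep and 0.782 to 2.30 CPM in the shallow libraries. Tnni1 and Tnnt2 are neighbours on chromosome 1 with Lad1 between them, and Tnnt1 lies beside Tnni3 on chromosome 7.

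Levels of different genes can be compared only per length, here as CPM per kilobase of merged exons. In wild-type myotubes the order of the means was Tnnc1 at 2339, Tnni1 at 1522, Tpm2 at 1352, Tnnt3 at 1277 and Tnnt2 at 1208 CPM per kilobase. Tnnt1 followed at 754, Tnnc2 at 693, Tpm1 at 502, Tnni2 at 175 and Tpm3 at 57.5. Tnni1, Tpm2, Tnnt3 and Tnnt2 lay within the spread between libraries of each other, as did Tnnt1, Tnnc2 and Tpm1. With the length of the longest coding transcript in place of merged exons, Tpm1 moved to 831 CPM per kilobase, above Tnnt1 and Tnnc2. Isoforms of these genes differ in length and were not separated by the counts.

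Within each family the slow form held most of the signal for troponin C and troponin I. Tnnc1 took 61.5% to 95.6% of the per-length troponin C signal over the 13 libraries, lowest in wild-type myotube 5, and Tnni1 85.3% to 94.9% of troponin I. Troponin T was shared among its 3 genes: Tnnt3 took 37.8% to 44.3% in wild-type and 30.3% to 45.6% in dICR/dICR libraries. Tnnt2 took 19.7% to 34.5% in wild-type myoblasts and 27.0% to 45.8% in wild-type myotubes.

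Among the tropomyosins, with Tpm4 counted in, Tpm2 took 60.5% to 71.4% in wild-type myotubes and 36.1% and 54.3% in dICR/dICR myotubes. In myoblasts Tpm2 took 27.4% to 50.5% in wild type and 26.2% and 35.5% in dICR/dICR. Tpm4 took 40.8% and 41.7% in the deep and 9.1% and 10.2% in the shallow wild-type myoblasts, and 35.5% and 47.0% in the dICR/dICR myoblasts. Tpm3 took 16.8% and 17.5% in the deep wild-type myoblasts and 1.4% and 1.6% in the shallow ones. Together Tpm3 and Tpm4 took more of the signal than Tpm1 and Tpm2 in the deep wild-type myoblasts, by merged exons and by the longest coding transcript. In dICR/dICR myoblast 2 the order depended on the length: Tpm3 and Tpm4 took 4.6% and 47.0%, more than Tpm1 and Tpm2, by merged exons, but 5.8% and 39.5%, less than Tpm1 and Tpm2, by the longest coding transcript.

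**Figure D4:**
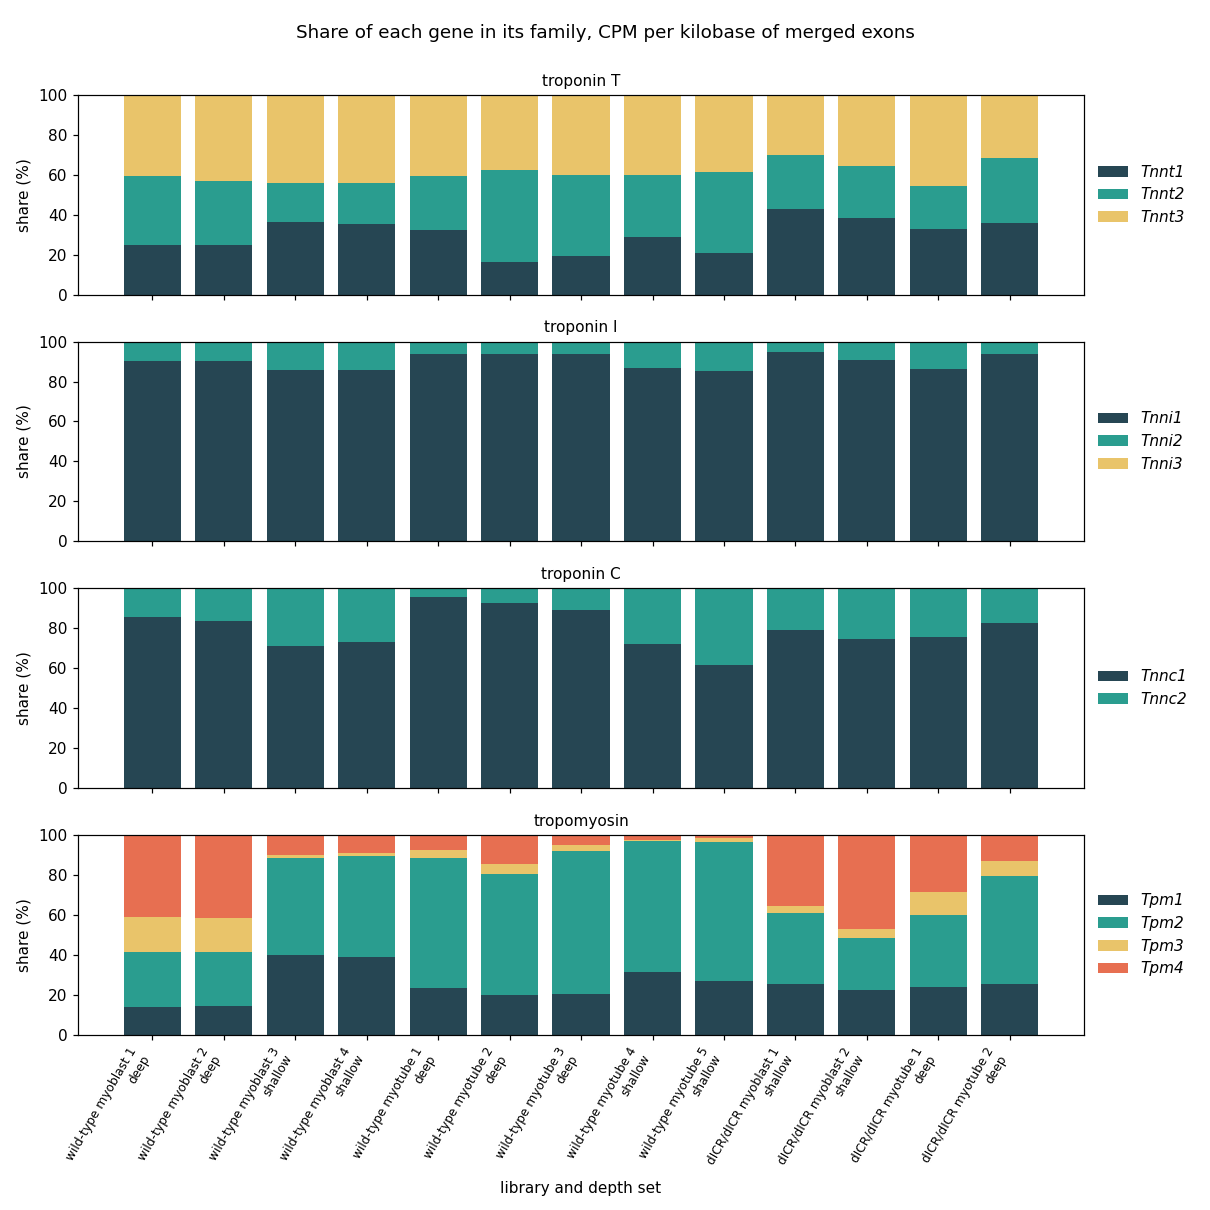
Share of each gene in the per-length signal of its family (percent of CPM per kilobase of merged exons) in the 13 libraries, 1 panel per family and 1 bar per library. Tnni1 and Tnnc1 fill most of their panels in all libraries, and the Tpm4 and Tpm3 parts are largest in the deep wild-type myoblasts and, for Tpm4, in the dICR/dICR myoblasts.

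Over the 13 libraries the genes whose log2 CPM ran most like the mean of the slow and cardiac troponins were Ehbp1l1, Myom1, Myl4, Casq2 and Mylpf, with Pearson r of 0.996 to 0.9887. For the mean of the fast troponins they were Actn2, Tm6sf1, Atp2a1, Tspan3 and Trim72, with r of 0.979 to 0.9768. Myom1 and Actn2 encode proteins of the M-band and the Z-disc, Myl4 and Mylpf myosin light chains, Casq2 a calcium store protein and Atp2a1 the calcium pump of fast fibres. Among the members, Tnni1 and Tnnc1 had r = 0.99, whereas Tnnt2 and Tnnc2 had r = 0.70 and Tpm3 had r between -0.49 (Tnnc2) and -0.06 (Tnnt2) with the other 9 genes. These libraries share group, depth set and scaling, so the values are descriptions.

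Marker levels differed between the other cell types listed. Sums over 4 adipocyte, 4 endothelial, 5 macrophage and 4 Schwann cell markers were at most 6.31, 6.13, 11.7 and 8.42 CPM in any library, below each of the 10 genes. The 7 heart muscle markers summed to 4.43 to 80.1 CPM, below the level of Tnnt2, the cardiac troponin T, in each library. The 6 fibroblast markers summed to 205 to 425 CPM in wild-type and 173 to 258 CPM in dICR/dICR myoblasts. In the respective myotubes they summed to 204 to 918 and 94.9 to 197 CPM. These sums lay within the range of levels of the 10 genes, but most of each was Col3a1, with group means of 139 to 386 CPM. No other fibroblast marker had a group mean above 25.8 CPM, that of Col1a1 in wild-type myotubes. Smooth muscle markers summed to 134 to 499 CPM in the wild-type myoblasts and 2404 to 4609 CPM in wild-type myotubes, most of it Acta2, which developing skeletal muscle also expresses. In dICR/dICR cells that sum was 184 to 314 CPM in myoblasts and 1109 to 2394 CPM in myotubes. Its part in the values of the 10 genes was not tested.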

How the data were processed

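RNA-seq of 13 libraries was analysed from 1 deposited table of raw counts per gene, with no normalisation by the authors. Ribosomal RNA had been removed from RNA of integrity number above 9, per the labels' protocols. Reads were aligned with TopHat2 to mm9 and counted with HTSeq, per the submitters' processing notes, with versions, annotation and strand setting not given in the sources used here. Protocols in the labels name an Illumina instrument (paired reads of 101 bases) and SOLiD (35 and 75 bases), and the platform of each library is likewise not given in the sources used here. Reads that match several genes alike, as for Tpm3, can be dropped or shared by such counting.

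In R 4.3.3, edgeR 4.0.16 filterByExpr (minimum count 10, minimum total 15) kept 16537 genes. TMM factors and 1 quasi-likelihood model of 4 group means over all libraries gave the contrasts, two-sided, with Benjamini-Hochberg adjustment over all genes. Depth sets were divided at 20 M counts. Alternatives were DESeq2 1.42.0, RLE factors, library size alone, no filter, the replicate number as a block, the depth set as a term, fits within a set, and leaving out each library. Count ratios used a prior count of 0.5 per gene and exact permutation tests. The scripts were tested on simulated data. Lengths came from GENCODE M21, and gene order and promoters from RefSeq on GRCm38.p6, a later build than the files', so no position of a count row is given.

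All 10 genes are named in each comparison; from the thin filament list at most 4 called genes with the smallest adjusted p are named, while Tmod2, Tmod3, Nebl, Tead4, Myog, Ckm and the neighbours on chromosome 7 were singled out after their values were seen. The members, lists and markers were chosen with earlier results of these data known. Between replicates the chi-square per degree of freedom ran from 4.67, for wild-type myoblasts 3 and 4, to 369, for wild-type myoblasts 2 and 4. It was 39.8 for wild-type myoblasts 1 and 2, 21.9 for wild-type myotubes 4 and 5 and 246 to 324 for the other wild-type myotube pairs. The value grows with depth, so shallow and deep pairs cannot be ranked by it. No pair was merged into 1 library, but these values do not show that replicates came from separate animals or cultures. The lowest count of a member was 93, of Tnni2 in dICR/dICR myoblast 2.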

Additional observations from a re-analysis of the deposited data

How the results depend on the processing

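With the depth sets ignored, the genotype effect in myoblasts called 0 of the 10 genes under every scaling, filter and left-out library. It called 3 with the depth set as a term and 9 within the shallow set, also when only the 2 groups entered the fit (an alternative added after seeing the data). The genotype effect in myotubes called 0 in every alternative. Wild-type differentiation called 4, 5 in DESeq2, which added Tnnt3, and 2 with library size alone. Library size alone called 21.8% of all genes, close to the share of 2 in 10, and moved the median log2 change of all genes from 0.02 to -0.26. Wild-type differentiation called 9 with the depth set as a term, 7 and 10 within the shallow and the deep set, 8 and 10 with only the 2 groups, and 2 to 5 when 1 library was left out. Differentiation in dICR/dICR called 9 and its difference from wild type 1 with the depth set as a term. The cause was not tested.

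Over all genes the genotype effect in myoblasts called 5 in edgeR, 432 in DESeq2, 333 with the depth set as a term and 2717 within the shallow set. The effect in myotubes called 92, 1088 in DESeq2, 425 with the term, and 106 within the deep set or 3 with only the 2 groups. Wild-type differentiation called 3158, 4282 in DESeq2 and 5267 with the term. Differentiation in dICR/dICR called 24, 1181 in DESeq2 and 1262 with the term. DESeq2 moved the median log2 change of all genes to -0.28 for the effect in myotubes, -0.28 for differentiation in dICR/dICR and -0.42 for the difference between the changes.

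Signs reversed, always for values that had not passed. In myoblasts Tpm3 had a genotype effect of 0.42 within the shallow set and 0.41 with only the 2 groups. In myotubes, Tnnc2 had 0.89 and Tnnt1 0.090 with the depth set as a term, and Tnnc2 0.90 within the deep set and 0.90 with only the 2 groups. In wild-type differentiation Tpm3 had 0.75 within the shallow set and 0.74 with only the 2 groups. For the difference between the differentiation changes, Tnnc2 had -0.022 in DESeq2 and -0.023 with RLE factors. Tpm2 had 0.0082 with library size alone, 0.075 without the filter and 0.59 with the term, where Tnnt2 had 0.41 and Tnni1 0.49. With 1 dICR/dICR library left out, these differences ran from -0.16 to 1.13 for Tnnt1, -1.40 to 0.27 for Tnnt2, -1.21 to 0.30 for Tnni1, -0.67 to 0.76 for Tnnc1, -0.31 to 0.49 for Tnnc2 and -0.67 to 0.53 for Tpm2. Within the shallow set the change of the log2 ratio was 0.36 for Tnnc2 to Tnnc1 and -0.094 for Tpm1 to Tpm3.

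The labels number replicates in each group without saying that a number marks a shared animal or culture. Deviations of same-numbered wild-type myoblasts and myotubes correlated at 0.43, 0.52, -0.41 and 0.52 for numbers 1 to 4. Only number 3 joins a shallow with a deep library, so the signs follow the depth sets and cannot show whether numbers mark pairs. Since the labels do not give pairs, the numbers were not taken as such. With the replicate block, wild-type differentiation called 6 of the 10 genes, where it called 3063 of all genes, or 18.5%. Each other comparison called 0 of the 10, and at most 100 of all genes; wild-type myotube 5 alone has its number and adds nothing to that fit. Under the block the genotype effect turned to 0.044 for Tnnt1, 0.092 for Tnni1 and 0.67 for Tnnc2 in myoblasts, and to 0.35 for Tnnt1, 0.10 for Tnni2, 1.55 for Tnnc2 and 0.069 for Tpm1 in myotubes. The 2 dICR/dICR groups correlated at -0.39. With 2 libraries per group, crossing the numbers must reverse that sign, so the value cannot show which numbers belong together. A block with the myotube numbers crossed, added after seeing the data, called 1 of the 10 genes and 1046 of all genes, or 6.33%. With the numbers as labelled it called 0 and 100.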
